A study of Homo sapiens with 6 samples.

Results

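Expression of 9 genes of ferroptosis defense and lipid peroxidation was examined in OCI-AML5 cells exposed to the compound S767. The 9 genes, *GPX4*, *AIFM2*, *DHODH*, *GCH1*, *SLC3A2*, *ACSL4*, *ACSL3*, *LPCAT3* and *ALOX5*, were taken by symbol from a fixed list and matched to 9 of the 60609 Ensembl genes in the count tables. OCI-AML5, an established line of human myeloid leukemia (AML) cells, was grown in alpha-MEM with heat-inactivated serum and the cytokine GM-CSF. Libraries of polyadenylated RNA were prepared in 3 replicates after exposure to the vehicle DMSO and in 3 after exposure to 1 μM S767, each time for 24 hours. All 6 libraries come from this 1 line. The labels give replicate numbers 1 to 3 in each group and do not say what libraries with the same number share, so the p-values measure only the spread between these libraries.

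Ferroptosis is an iron-dependent form of cell death driven by peroxidation of polyunsaturated fatty acids in membrane phospholipids. Cells hold it back by reducing lipid peroxides with glutathione and GPX4, and by trapping lipid radicals with reduced ubiquinone or tetrahydrobiopterin. Enzymes that load polyunsaturated fatty acids into phospholipids, and lipoxygenases that oxidize them, act on the opposite side. The comparison asks whether transcripts on either side differed after S767, a compound that the study examined for its effect on intracellular metals.

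The libraries held between 149994700 and 258029564 counts assigned to genes on the sense strand, and 20725 genes had enough counts to be tested. Of the 9 myeloid leukemia markers examined, 7 were above 1 TPM (a level scaled for transcript length and library depth) in every library, among them *CD33* at 88.6 to 105.9 TPM and *SPI1* at 213.7 to 258.5 TPM. *KIT* and *ANPEP* were below 1 TPM. Of the other cell type markers, *CD79A*, a B cell receptor component, reached 11.2 TPM, and all others were below 1 TPM. Across all genes tested, the quasi-likelihood test of edgeR, adjusted by Benjamini-Hochberg, placed 1 gene under an adjusted p of 0.05 without the replicate number in the fit and 670 genes with it as a block. Without pair 2 the block fit placed 24 genes there, and without pair 1 it placed 2034.

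The members covered a 711-fold range of transcript level in DMSO, from *GPX4* at 381.4 ± 4.06 TPM (SD, n = 3) to *ALOX5* at 0.537 ± 0.085 TPM. *GPX4* stood above 98.4% of the genes tested. *SLC3A2* followed at 160.5 ± 16.0 TPM, then *ACSL3* at 56.8 ± 2.62, *ACSL4* at 45.5 ± 2.56 and *LPCAT3* at 33.6 ± 1.52 TPM. The lower levels were those of *DHODH* at 13.1 ± 0.505, *GCH1* at 8.48 ± 0.980 and *AIFM2* at 7.18 ± 2.20 TPM. The order of the means was the same in the S767 group and when counts were divided by transcript length. Only *GCH1* and *AIFM2* were neighbors in this order whose ranges over the 6 libraries overlapped, so their order does not exceed their spread.

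**Figure D1:**
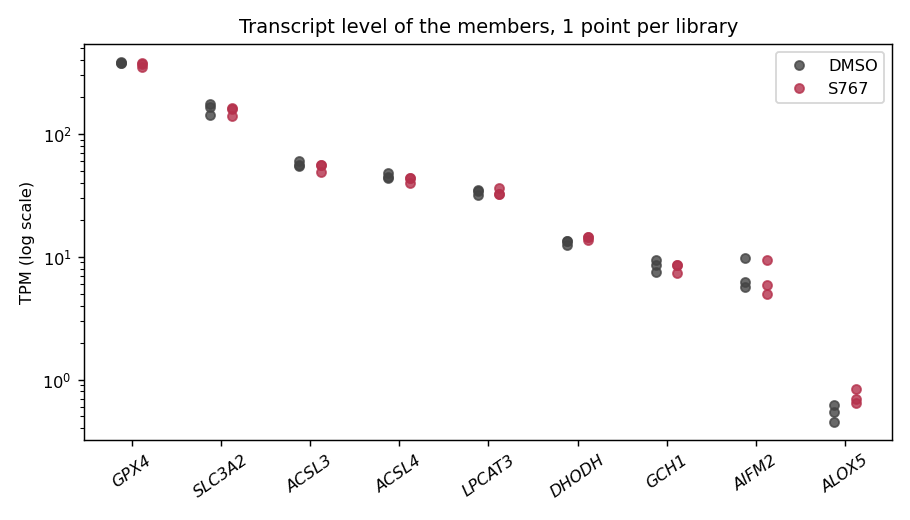
Transcript level (TPM, log scale) of the 9 members, with 1 point for each DMSO (grey) and S767 (red) library, ordered by the mean in DMSO. Levels run from 352.6 to 385.6 TPM for *GPX4* down to 0.45 to 0.83 TPM for *ALOX5*, and the DMSO and S767 points lie close together within each gene.

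None of the 9 members passed an adjusted p of 0.05, either without the replicate block, where 0.00483% of all genes tested passed, or with it, where 3.23% passed. DESeq2 and limma-voom placed 0 members there too, but DESeq2 gave *ALOX5* no adjusted p. At an unadjusted p under 0.05 the fit without the block held 1 member, *ALOX5*, against 3.53% of all genes. The block fit held 3 members at that p, against 16.8% of all genes. *ALOX5* was 1 higher member against 9.38% of all genes in that direction, and *ACSL4* and *ACSL3* were 2 lower members against 7.39%. Leaving out a pair changed the adjusted count with the block. Without pair 1, *ACSL4* (-0.12, edgeR adjusted p = 0.0002) and *ACSL3* (-0.11, edgeR adjusted p = 0.0008) passed, as did 9.86% of all genes tested in that fit. Without pair 3, *ALOX5* passed (0.61, edgeR adjusted p = 0.0054), as did 3.06% of all genes. The estimates were small for 8 of the 9 members, between -0.09 and 0.05 on the log2 scale, and the median over the members was -0.05, against -0.00024 over all genes. The whole 95% interval lay within 0.4 of 0 on the log2 scale, the change the study used as its limit, for 7 members without the block and 8 with it, against 53.9% and 62.9% of all genes. The exceptions were *AIFM2* and *ALOX5* without the block and *ALOX5* with it. For the other members, changes of that size lie outside the intervals of these fits.

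**Figure D2:**
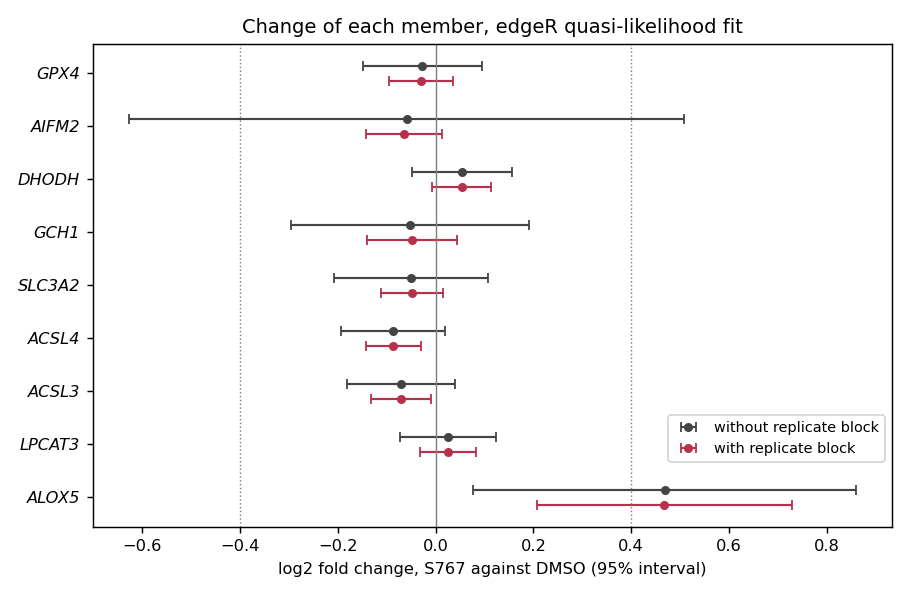
Log2 fold change of each member in S767 against DMSO from edgeR's quasi-likelihood fit, with 95% intervals, without (grey) and with (red) the replicate number as a block; dotted lines mark changes of 0.4. The *AIFM2* interval runs from -0.63 to 0.51 without the block and from -0.14 to 0.01 with it, and only the *ALOX5* interval reaches beyond 0.4 in both fits.

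Levels in each library are given as CPM, the count scaled to library size with TMM factors, which compares libraries within a gene. The adjusted p of every member was 1.00 in the fit without the block.

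*GPX4* (ENSG00000167468.17, chr19:1103926-1106791, plus strand, GRCh38) encodes the selenoenzyme that reduces phospholipid hydroperoxides with glutathione. Its level was 162.3, 166.9 and 160.8 CPM in DMSO libraries 1, 2 and 3, and 148.2, 170.9 and 161.8 CPM in S767 libraries 1, 2 and 3. The S767 group held both the lowest and the highest library, and the groups overlapped. The log2 fold change was -0.03 (SE 0.053, 95% interval -0.15 to 0.09, exact permutation p = 0.8).

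*AIFM2* (ENSG00000042286.15, chr10:70098223-70132934, minus strand) encodes FSP1, the oxidoreductase that regenerates reduced ubiquinone at membranes. It was measured at 22.4, 14.7 and 12.9 CPM after DMSO and at 21.6, 14.5 and 11.9 CPM after S767. In both groups replicate 1 was the highest and replicate 3 the lowest, and the S767 library lay just below the DMSO library of the same number each time, by 0.05, 0.02 and 0.12 on the log2 scale. The log2 fold change was -0.06 in both fits, with an SE of 0.248 without the block and 0.036 with it (edgeR adjusted p = 0.411). The replicate number accounted for 98.8% of the spread of log2 *AIFM2* over the 6 libraries and the treatment for 0.841%. Of the 9 myeloid markers, 5 (*LYZ*, *MPO*, *SPI1*, *CEBPA* and *CSF2RA*) were also highest in replicate 1 in both groups, and the other 4 were not, *PTPRC* being highest in replicate 3. *LYZ* was at 596.5, 263.8 and 244.2 TPM in DMSO and 596.4, 263.6 and 248.0 TPM in S767, and *MPO* at 26.6, 17.1 and 13.4 TPM in DMSO and 24.9, 16.2 and 12.6 TPM in S767. The sum over the myeloid list ran from 760.1 to 1168 TPM in DMSO and from 756.0 to 1170.2 TPM in S767, and without *LYZ* from 515.8 to 571.0 TPM and from 508.0 to 573.8 TPM. Their part in the spread of *AIFM2* was not tested. The share of all genes that were highest in replicate 1 in both groups was not computed. Over all genes tested, the median share of the spread between replicate numbers was 62.8%. In RNA from bulk cultures, a smaller share of cells of some kind and less RNA per cell cannot be told apart.

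*DHODH* (ENSG00000102967.12, chr16:72008588-72027664, plus strand) encodes dihydroorotate dehydrogenase, the mitochondrial enzyme of pyrimidine synthesis that passes electrons to ubiquinone. It read 31.0, 31.8 and 31.9 CPM in DMSO, and 31.6, 33.5 and 33.3 CPM in S767. S767 was the higher library in 3 of 3 same-numbered pairs, although the ranges overlapped, and the log2 fold change was 0.05 (SE 0.045, exact permutation p = 0.3). In TPM the groups separated, with 13.4, 12.5 and 13.4 in DMSO and 13.7, 14.6 and 14.4 in S767, as they did for 7.86% of all genes tested. *DHODH* was also the only member whose mean transcript length, as estimated by RSEM, did not overlap between groups, at 3035 ± 151 bases in DMSO and 2850 ± 40.4 bases in S767. By library the lengths were 2895, 3195 and 3016 bases in DMSO and 2892, 2811 and 2848 bases in S767. The gap between the groups was thus narrow, and lay between the 2 libraries of replicate 1. The exact permutation test of the lengths gave p = 0.1, the smallest that 3 against 3 libraries allow, and 5.27% of all genes tested separated in this way. Since TPM divides by that length, the change on the log2(TPM + 0.1) scale, 0.12, was larger than that in counts.

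*GCH1* (ENSG00000131979.19, chr14:54842008-54902852, minus strand) encodes GTP cyclohydrolase 1, which starts the synthesis of tetrahydrobiopterin, a radical-trapping antioxidant. DMSO libraries held 15.9, 13.2 and 17.6 CPM and S767 libraries 15.3, 13.8 and 16.0 CPM. Replicate 2 was the lowest in either group, the S767 values all lay inside the DMSO range, and the log2 fold change was -0.05 (SE 0.106, exact permutation p = 0.9).

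*SLC3A2* (ENSG00000168003.16, chr11:62856102-62888875, plus strand) encodes the heavy chain CD98, which pairs with SLC7A11 to import cystine for glutathione synthesis and with SLC7A5 to import large neutral amino acids. Its values were 220.3, 184.6 and 205.0 CPM in DMSO against 199.6, 183.4 and 206.3 CPM in S767. The groups overlapped, the highest library was in DMSO, replicate 2 was again the lowest in both, and the log2 fold change was -0.05 (SE 0.069, exact permutation p = 0.6).

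**Figure D3:**
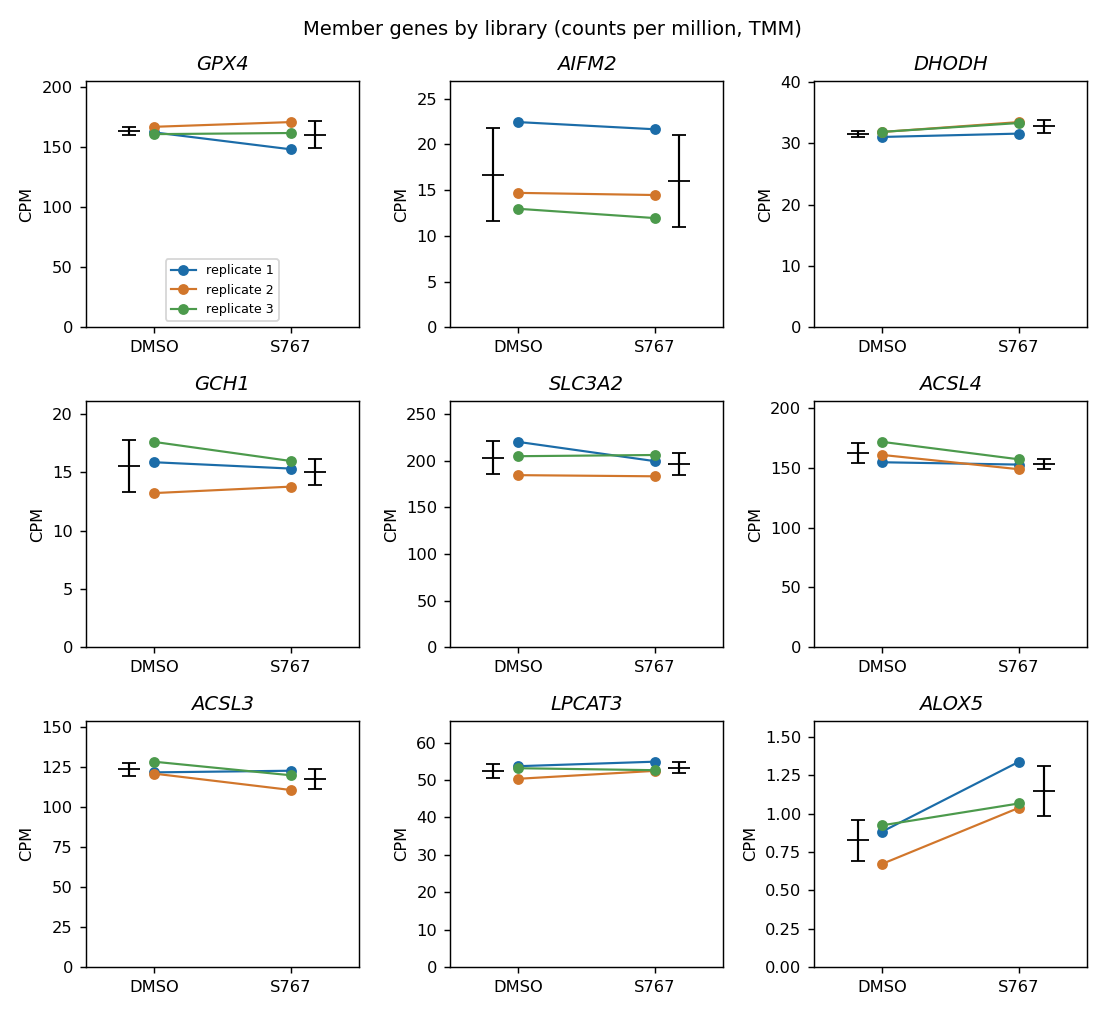
Level (CPM, TMM scaled) of each member in the DMSO and S767 libraries, with lines joining libraries of the same replicate number and black marks showing the mean ± SD of each group (n = 3); every axis starts at 0. Lines for *AIFM2* are nearly level and far apart, at 22.4 to 11.9 CPM, while the *ALOX5* values are higher in S767 in all 3 pairs.

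On the lipid side, *ACSL4* (ENSG00000068366.20, chrX:109624244-109733403, minus strand) encodes the acyl-CoA synthetase that activates arachidonic and other polyunsaturated fatty acids. It stood at 154.7, 160.8 and 171.7 CPM in DMSO and at 152.7, 148.8 and 157.1 CPM in S767. S767 was lower in 3 of 3 pairs, by 0.02, 0.11 and 0.13 on the log2 scale, while the groups overlapped. The log2 fold change was -0.09 without the block (SE 0.047, exact permutation p = 0.2) and -0.09 with it (SE 0.026, edgeR adjusted p = 0.102).

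*ACSL3* (ENSG00000123983.14, chr2:222860934-222944639, plus strand) encodes the synthetase that activates monounsaturated fatty acids, whose phospholipids resist peroxidation. The DMSO libraries gave 121.6, 120.8 and 128.3 CPM, and the S767 libraries 122.6, 110.6 and 119.8 CPM. Libraries 2 and 3 were lower with S767 and library 1 was not, and the log2 fold change was -0.07 (SE 0.048, exact permutation p = 0.3). The balance between the pair, as the *ACSL3* to *ACSL4* ratio of TPM, was 1.22 to 1.27 in all 6 libraries, and its log2 value differed between groups by 0.0075 (exact permutation p = 0.8).

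*LPCAT3* (ENSG00000111684.11, chr12:6976186-7018510, minus strand) encodes the acyltransferase that inserts polyunsaturated fatty acids into lysophospholipids. The level was 53.7, 50.3 and 53.1 CPM in DMSO and 54.9, 52.4 and 52.6 CPM in S767. The groups overlapped, and the log2 fold change was 0.03 (SE 0.043, exact permutation p = 0.6). The gene shares 3100 exonic bases with *EMG1* on the opposite strand. Counts in the wrong direction at *LPCAT3* came to 25.7% to 28.4% of its counts over both strands, against at most 8.26% for any other member, and the column that ignores strand kept only 32.6% to 34.1% of its sense-strand count. The values given here are from the sense strand alone.

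*ALOX5* (ENSG00000012779.11, chr10:45374176-45446119, plus strand) encodes 5-lipoxygenase, which oxidizes arachidonic acid on the way to leukotrienes and is typical of myeloid cells. It was the only member with few counts, 193, 100 and 239 in DMSO and 319, 186 and 210 in S767, or 0.883, 0.673 and 0.924 CPM against 1.34, 1.04 and 1.07 CPM. Every S767 library lay above every DMSO library in CPM, which was true of 5.12% of all genes tested in this direction. The log2 fold change was 0.47 (SE 0.171, 95% interval 0.08 to 0.86, edgeR adjusted p = 1.00) and did not pass the adjustment. With the block it was 0.47 (SE 0.120, edgeR adjusted p = 0.0559), with differences of 0.59, 0.62 and 0.21 in pairs 1, 2 and 3. The exact permutation test gave p = 0.1, the smallest value possible here. Of all genes tested, 0.429% lay above a log2 fold change of 0.4 with an unadjusted p under 0.05, as *ALOX5* did. The partner protein gene *ALOX5AP*, which presents arachidonic acid to the enzyme, was also low at 1.06 to 1.74 TPM. Among 6191 genes with a mean log2 CPM above 5, the patterns most like *ALOX5* over the 6 libraries were those of *PAQR3* (Pearson r 0.994), *PGM2* (r 0.980) and *ESCO2* (r 0.979), given as a description of libraries that share treatment and depth.

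The sum of squares in log2 CPM between replicate numbers exceeded that between treatments for 8 of the 9 members. Replicate number has more levels than treatment, so its share is expected to be larger even where neither has an effect. The shares were not scaled for this. The median member had 62.2% of its sum of squares in log2 CPM between replicate numbers and 11.4% between treatments, close to the medians of 62.8% and 10.2% over all genes tested. The replicate share ran from 98.8% for *AIFM2*, 88.7% for *GCH1* and 80.2% for *SLC3A2* down to 27.2% for *ALOX5*. *ALOX5* was the exception, with 62.7% of its spread between treatments, while *ACSL4* had nearly equal unscaled shares, 43.3% and 43.1%. All 3 same-numbered pairs moved the same way for 4 members, against 37.8% of all genes tested. *ALOX5* and *DHODH* were higher in S767 each time, as were 19.9% of all genes, and *ACSL4* and *AIFM2* were lower, as were 17.8%.

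**Figure D4:**
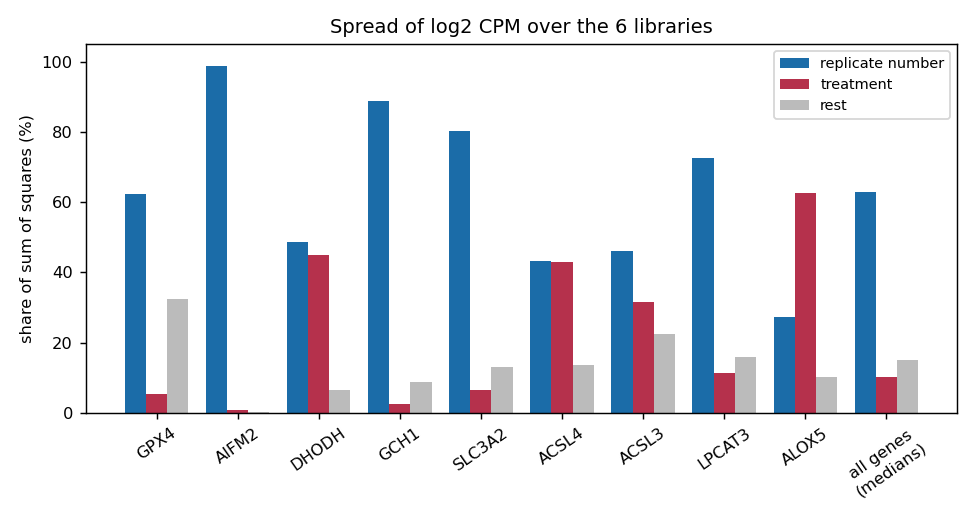
Share of the sum of squares of log2 CPM over the 6 libraries that lies between replicate numbers (blue), between treatments (red) and in the rest (grey), for each member and as medians over all genes tested. Replicate number takes 98.8% for *AIFM2*, and treatment takes its highest share, 62.7%, for *ALOX5*.

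The same pathways gave 86 further genes in 11 lists, which were chosen with earlier results of these data known. Their counts beside the shares of all genes are therefore a description and no test of the lists. Of the 86 genes, 81 could be tested. None passed an adjusted p of 0.05 without the block, 3 had an unadjusted p under 0.05 (1 higher and 2 lower) against 3.53% of all genes, and the median log2 fold change was 0.02 with 47 above 0 and 34 below. With the block, 17 were higher and 7 lower at an unadjusted p under 0.05, against 9.38% and 7.39% of all genes, and 5 passed the adjusted limit, 3 upward and 2 downward, against 3.23% of all genes. The 2 that fell were both in the list of 8 genes for cystine and glutathione supply. No gene of this list passed upward, and 2 were higher at an unadjusted p under 0.05 with the block. *SLC7A11*, the cystine transporter light chain that pairs with SLC3A2, was at 23.6, 18.3 and 29.1 CPM in DMSO and 17.3, 16.0 and 18.3 CPM in S767. Its S767 library was the lower in each pair although the groups overlapped, and the log2 fold change was -0.44 (SE 0.063, edgeR adjusted p = 0.0035) with the block and -0.46 (SE 0.146, adjusted p = 1.00) without it. *GCLM*, the modifier subunit of the enzyme that starts glutathione synthesis, was at 51.4, 41.6 and 35.6 CPM against 37.5, 31.3 and 26.7 CPM. It was lower by 0.46, 0.41 and 0.41 in the 3 pairs, for a log2 fold change of -0.43 with the block (SE 0.027, edgeR adjusted p = 1.01e-05) and -0.43 without it (SE 0.149, adjusted p = 1.00).

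The 3 genes that rose with the block were 2 of the 8 other peroxide and quinone reductases and 1 of 14 tested genes of fatty acid activation and acylation. *NQO1*, a quinone reductase, was at 11.3, 9.20 and 6.72 CPM in DMSO and 15.1, 13.3 and 8.96 CPM in S767, higher in every pair, with a log2 fold change of 0.46 (SE 0.044, edgeR adjusted p = 0.0003 with the block and 1.00 without). *TXNRD1*, thioredoxin reductase 1, had a log2 fold change of 0.11 with the block (SE 0.024, edgeR adjusted p = 0.0252). *ACSL5*, a further acyl-CoA synthetase, had 0.10 (SE 0.024, edgeR adjusted p = 0.0375). *SLC7A11*, *GCLM* and *NQO1* also passed with each pair left out in turn, at -0.56 to -0.33, -0.44 to -0.41 and 0.42 to 0.47. In the fit without the block, leaving out 1 library gave -0.61 to -0.28 for *SLC7A11*, nearest 0 without DMSO replicate 3, and -0.56 to -0.28 for *GCLM*, nearest 0 without DMSO replicate 1. It gave 0.28 to 0.65 for *NQO1*, nearest 0 without DMSO replicate 3 (0.30 without S767 replicate 1), and 0.07 to 0.17 for *TXNRD1*, nearest 0 without S767 replicate 1. Without pair 2 the edgeR adjusted p was 0.442 for *TXNRD1* and 0.531 for *ACSL5*, and without pair 3 it was 0.0949 for *ACSL5*. The 12 genes of coenzyme Q synthesis, the 8 of selenoprotein synthesis, the 6 of tetrahydrobiopterin, both pyrimidine genes beside *DHODH*, the 4 of ether lipid synthesis, the 10 tested lipoxygenases, leukotriene enzymes and oxidoreductases, the 4 tested light chains of SLC3A2 and the 5 regulators held no gene past the adjusted limit in either fit. *GNPAT*, of ether lipid synthesis, was at 83.5, 83.9 and 82.7 CPM against 88.0, 91.5 and 86.3 CPM, and had a log2 fold change of 0.09 (edgeR adjusted p = 0.0760 with the block, and 0.0154 without pair 1). It was 1 of 4 pathway genes, with *COQ2*, *CAD* and *MBOAT2*, whose S767 libraries all lay above their DMSO libraries, against 5.12% of all genes, and the other 3 are named here after their values were seen. The lipoxygenases *ALOX15* and *ALOX12B* were at 0.02 to 0.06 and 0.15 to 0.30 TPM.

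**Figure D5:**
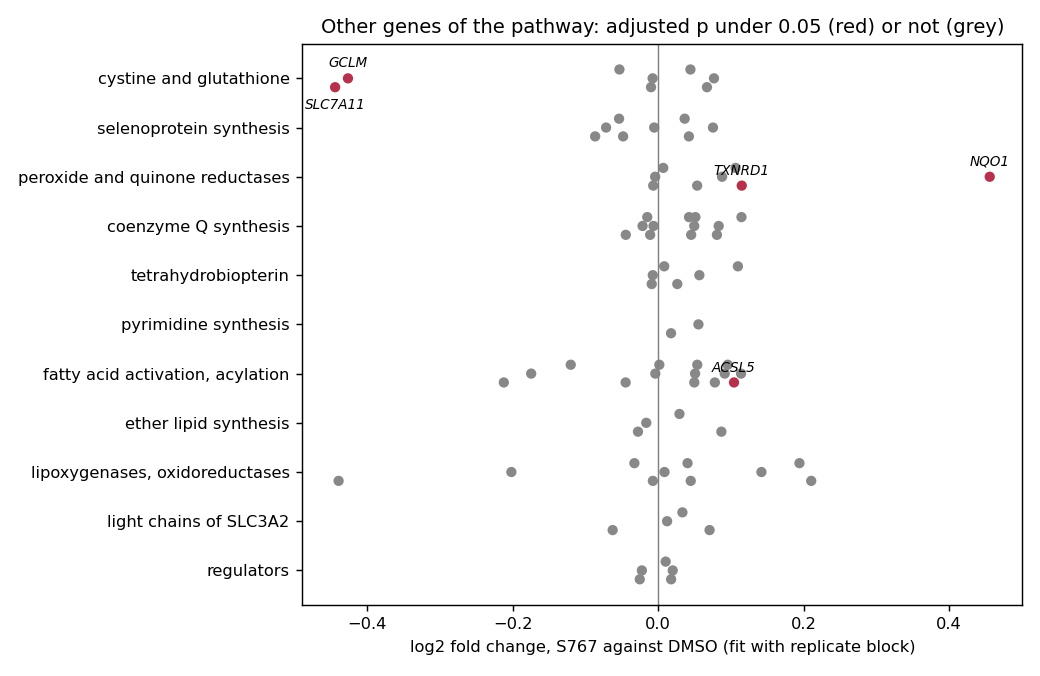
Log2 fold change in S767 against DMSO, from the fit with the replicate block, of the 81 tested pathway genes that are not members, by list (red, adjusted p under 0.05; grey, not; vertical offsets within a list only separate points). *SLC7A11* and *GCLM* lie at -0.44 and -0.43, *NQO1* at 0.46, and *TXNRD1* and *ACSL5* at 0.11 and 0.10.

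*SLC3A2* and its light chains were set side by side in each library as log2 ratios of TPM, a comparison chosen after these values were seen. The *SLC7A11* to *SLC3A2* ratio was -5.79, -5.88 and -5.40 in DMSO and -6.09, -6.10 and -6.08 in S767. All S767 libraries lay below all DMSO libraries, by 0.40 on average (exact permutation p = 0.1, the smallest possible). This difference of -0.40 became -0.25 without DMSO library 3. The ratio was picked with the lower *SLC7A11* level already known, so its separation restates that level and is no separate test. The *SLC7A5* to *SLC3A2* ratio differed by -0.01 (exact permutation p = 0.9), and *SLC7A5* exceeded *SLC3A2* by 1.26 to 1.44 times in every library.

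The promoters of members and of the genes that passed the limit were searched for the letters TGACNNNGC of the antioxidant response element, the site bound by NRF2, on both strands of the 250 bases before each RefSeq start. The promoter set used here had entries for 7 of the 9 members, and *ALOX5* and *GCH1* were not searched. Of the 7, *AIFM2* and *SLC3A2* held the letters, in 2 of the 11 windows that the 7 members have by start, against 10.9% of 35116 promoters. The GC content of the 11 windows was 60.8% to 80.4%, against a median of 58.0% over all promoters. Of the genes that passed the limit with the block, *GCLM*, *TXNRD1* and *ACSL5* held the letters too and *NQO1* did not, while *SLC7A11* was not searched. The matches are shown in capitals, 5′ to 3′ on the strand of the gene (GRCh38.p14), because they are letters these members share with genes that passed the limit. The stretches shown lie at chr10:70132829-70132858 (*AIFM2*, minus), chr11:62881651-62881680 (*SLC3A2*, plus, 1 of 3 starts), chr1:93909431-93909550 (*GCLM*, minus) and chr12:104215659-104215778 (*TXNRD1*, plus, 1 of 2 starts, both with a match). In GENCODE 29, which places some starts farther upstream, all 30 bases shown for *AIFM2*, 13 of those for *SLC3A2* and 26 of those for *GCLM* lie in an annotated exon of the gene itself. *GPX4*, the member at the highest level, is shown at chr19:1103806-1103925 (plus), and these letters were not in the window before any of its 3 starts.
AIFM2: ccagcacgagtGCTGAGTCAcgccccgccc
SLC3A2: acgagggtgggTGACTCAGCgtcctccttc
GCLM: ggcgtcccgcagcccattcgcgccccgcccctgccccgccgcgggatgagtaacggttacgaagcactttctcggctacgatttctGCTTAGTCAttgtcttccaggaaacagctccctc
TXNRD1: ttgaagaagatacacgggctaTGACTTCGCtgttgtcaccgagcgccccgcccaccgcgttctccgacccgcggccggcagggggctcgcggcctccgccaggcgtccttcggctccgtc
GPX4: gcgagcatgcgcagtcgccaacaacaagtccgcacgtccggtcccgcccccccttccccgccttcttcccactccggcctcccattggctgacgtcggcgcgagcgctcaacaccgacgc
The match begins 22 bases before the start in *AIFM2*, 37 in *SLC3A2*, 34 in *GCLM* and 99 in *TXNRD1*. In *ACSL5*, not shown, it begins 154 bases before 1 of 2 starts. The log2 fold changes of the 5 genes with the block were -0.06 for *AIFM2*, -0.05 for *SLC3A2*, -0.43 for *GCLM*, 0.11 for *TXNRD1* and 0.10 for *ACSL5*. Of other letters searched on both strands, GGGCGG (the GC box) was in 11 of the 11 windows against 42.6% of all promoters, CCAAT in 6 against 32.0%, and TGCGCNC and TGCACNC (letters of the metal response element) in 5 and 3 against 16.8% and 9.87%. TGATGNAA, of the ATF4 response element, was in 0 of 11 against 3.14%. Some windows of *GPX4* overlap, so the 11 windows are not separate and some sites are counted more than once. By gene, GGGCGG was in 7 of the 7 members searched and CCAAT in 5. Binding at these letters was not measured.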

How the data were processed

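Polyadenylated RNA was sequenced in 6 stranded libraries, 3 per group. The authors used Trimmomatic for trimming, STAR for alignment and RSEM for quantification. The submitters' processing notes name STAR 2.7.1a, RSEM 1.2.28 and GRCh38; the annotation release is not given in the sources used here. The deposited count tables hold whole counts per gene for each strand, and the sense-strand column was used, leaving out 4 summary lines with 19.7% to 20.7% of fragments. The authors' RSEM tables hold expected counts, which are estimates, and TPM values. Positions are from GENCODE 29.

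Counts were tested in edgeR 4.0.16 (R 4.3.3) with TMM scaling, filterByExpr (min.count 10), the quasi-likelihood test and Benjamini-Hochberg adjustment over 20725 genes. SEs came from the fold change and F statistic. Plotted and permuted log2 CPM values used a prior count of 2. Depth gives 100 to 319 counts for *ALOX5* and 1964 or more for each other member. The samples with the same replicate number deviated together from their group means (r = 0.78, 0.87 and 0.75 over 6191 genes with mean log2 CPM above 5). The number was therefore also fitted as a block. Between other numbers r was -0.24 to -0.62. Centering on group means draws these values below 0 once same-numbered libraries deviate together, so they add no separate support. The scripts were tested on simulated data. Alternatives were DESeq2 1.42.0, limma 3.58.1 (voom, and log2(TPM + 1) or log2(TPM + 0.1)), and scaling by RLE factors or by library size alone. Others were no limit on low counts, at least 10 counts in every library, RSEM expected counts (rounded), the column that ignores strand, and leaving out each library or pair. DESeq2 gave *ALOX5* no adjusted p.

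The members are matched by symbol alone, but they and the lists were chosen with earlier results of these data known. All 9 members are named, with pathway genes at an unadjusted p under 0.05, or an adjusted p under 0.05 with the block, at most 4 per list, and, for the member of smallest p, the 3 best-correlated genes among those whose mean log2 CPM exceeded 5.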

Additional observations from a re-analysis of the deposited data

How the results depend on the processing

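No member passed the adjusted limit under any setting that kept all 6 libraries, where DESeq2, with or without the block, gave *ALOX5* no adjusted p. The count over all genes moved with the replicate block and with other settings. Without the block 1 gene of all those tested passed in edgeR, 27 in DESeq2, 9 with no limit on low counts, and 0 on the log2(TPM + 1) and log2(TPM + 0.1) scales. On those scales limma gave 1062 and 1077 genes at an unadjusted p under 0.05. Leaving out 1 library gave 1 to 2. The block gave 670 genes, 609 in limma-voom, and, in alternatives added after the data were seen, 617 with library size alone, 394 with RSEM expected counts and 645 in DESeq2. With pair 1, 2 or 3 left out it gave 2034, 24 and 636, and 2, 0 and 1 members: without replicate 1, *ACSL4* (-0.12, adjusted p = 0.0002) and *ACSL3* (-0.11, adjusted p = 0.0008) passed, and without replicate 3 *ALOX5* (0.61, adjusted p = 0.0054) passed. The pathway genes past the limit were 0 without the block, 5 with it, 6 in limma-voom, 5 with library size alone, 4 with RSEM, 6 in DESeq2 and 22, 3 and 7 with pair 1, 2 or 3 left out. With all 3 pairs in edgeR, the block changed no other call at the adjusted limit among members and named pathway genes. *ACSL5* did not pass with the block and RSEM expected counts (adjusted p = 0.0611), and *GNPAT* passed with the block without replicate 1 (adjusted p = 0.0154).

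Of 214 member estimates under the alternatives, 200 kept direction and side of the limit, 3 passed the limit and 11 reversed, none of them past the limit. Those leaving out 1 library or pair ranged from -0.076 to 0.027 for *GPX4* (0.020 with the block without replicate 1), -0.34 to 0.21 for *AIFM2*, -0.0024 to 0.044 for *LPCAT3*, -0.11 to 0.012 for *SLC3A2* and -0.16 to 0.046 for *GCH1*, and *LPCAT3* was -0.0039 and -0.0040 on the 2 TPM scales. *ALOX5* stayed above 0 throughout, at 0.34 to 0.61 with a library or pair left out and 0.17 on the log2(TPM + 1) scale, which compresses low levels. *ACSL4* (-0.12 to -0.045), *ACSL3* (-0.11 to -0.028) and *DHODH* (0.039 to 0.081) did not reverse, and the ends nearest 0 came without DMSO replicate 3, S767 replicate 2 and S767 replicate 2. The depth of 100 to 319 counts limits *ALOX5*.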
